A study of Mus musculus with 8 samples.

Results

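The genes examined were 9 transcription factors of heart chamber and sinus node identity. Their CHD4 sites were taken as all merged peak regions that overlap a gene body plus 20 kb on each side. That rule gave 67 of the 121267 merged sites of the series, at 7 of the 9 genes. The genes are 9 of the 21883 protein-coding genes of the annotation, of which 16748 have a site. The factors were placed in classes by their textbook roles. The atrial factors are Nr2f1, Nr2f2 and Hey1, the ventricular factors Hey2, Irx4 and Hand2, and the sinus node factors Isl1 and Shox2. Nkx2-5 is active in both chambers and is described on its own.

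CHD4 occupancy was measured by ChIP-seq in frozen mouse atria, in 2 libraries titled TBX5 KO and 2 titled control, each with its own peak list on build mm10. The mice of both groups were Tbx5 flox/flox and were injected at postnatal day 2 with AAV9:Nppa-Cre for TBX5 KO or with AAV9:Nppa-EGFP for control. The Nppa sequence is active in atrial cardiomyocytes, so the Cre vector is aimed at those cells, while the dissected tissue is labelled as mixed in cell type. The age at collection, and whether a library is 1 animal or a pool, are not stated in the labels. Differences between libraries of a group may therefore be technical. The genotype and treatment fields are opposite to the titles, and the treatment text names CHD4 and not TBX5 as the deleted gene. Every direction below rests on the titles. A peak does not measure expression, so neither the tissue label nor the deletion of Tbx5 can be checked here. In whole atria, fewer cells that hold CHD4 at a site and less CHD4 per cell cannot be told apart.

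CHD4 is the helicase subunit of the NuRD complex, which slides nucleosomes and removes acetyl groups from histones, and it is found at promoters and enhancers. Chamber identity in the mouse heart is held by opposed factors. Nr2f2 favours the atrial programme, Irx4 and Hey2 restrain atrial genes in the ventricle, and Shox2 limits Nkx2-5 in the sinus node so that pacemaker cells keep their character. TBX5 acts with Nkx2-5 at many cardiac enhancers.

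The promoter sequences of 5 of these genes are printed as examples of promoters with a CHD4 call (Nkx2-5, Hand2, Hey2) and without one (Irx4, Isl1). They come from RefSeq on GRCm38.p6, the assembly behind mm10, and run from 250 bases before to 50 bases after a transcription start, 5′ to 3′ along the gene, with CG in capitals. The Nkx2-5 window is chr17:26841516-26841815 (minus strand), that of Hand2 is chr8:57320733-57321032 (plus strand), and that of Hey2 is chr10:30842734-30843033 (minus strand). The Nkx2-5 start used here lies inside the annotated gene body, which extends further upstream. The Irx4 window is chr13:73260247-73260546 (plus strand) and the Isl1 window chr13:116309639-116309938 (minus strand).
Nkx2-5: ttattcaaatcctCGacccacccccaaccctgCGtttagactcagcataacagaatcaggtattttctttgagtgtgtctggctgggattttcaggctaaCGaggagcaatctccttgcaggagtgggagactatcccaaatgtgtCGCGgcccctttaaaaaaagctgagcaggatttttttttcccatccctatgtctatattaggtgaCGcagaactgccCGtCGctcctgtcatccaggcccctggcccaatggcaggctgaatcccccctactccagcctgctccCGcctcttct
Hand2: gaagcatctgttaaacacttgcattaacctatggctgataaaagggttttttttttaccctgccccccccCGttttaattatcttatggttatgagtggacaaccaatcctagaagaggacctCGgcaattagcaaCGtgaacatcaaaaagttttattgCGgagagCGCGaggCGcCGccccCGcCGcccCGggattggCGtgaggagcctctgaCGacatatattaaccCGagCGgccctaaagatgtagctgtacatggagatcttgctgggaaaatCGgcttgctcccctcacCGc
Hey2: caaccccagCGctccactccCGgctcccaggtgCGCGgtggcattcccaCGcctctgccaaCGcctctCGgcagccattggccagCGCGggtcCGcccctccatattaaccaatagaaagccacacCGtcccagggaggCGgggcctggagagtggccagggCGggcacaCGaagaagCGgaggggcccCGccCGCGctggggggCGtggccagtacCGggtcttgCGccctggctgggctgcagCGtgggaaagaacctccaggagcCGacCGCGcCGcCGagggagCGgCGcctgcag
Irx4: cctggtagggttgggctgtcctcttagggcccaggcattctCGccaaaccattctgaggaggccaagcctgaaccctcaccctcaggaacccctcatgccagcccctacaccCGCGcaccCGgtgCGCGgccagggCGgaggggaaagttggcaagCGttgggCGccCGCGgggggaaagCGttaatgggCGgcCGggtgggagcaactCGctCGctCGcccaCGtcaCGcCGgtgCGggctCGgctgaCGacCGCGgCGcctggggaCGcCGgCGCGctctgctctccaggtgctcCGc
Isl1: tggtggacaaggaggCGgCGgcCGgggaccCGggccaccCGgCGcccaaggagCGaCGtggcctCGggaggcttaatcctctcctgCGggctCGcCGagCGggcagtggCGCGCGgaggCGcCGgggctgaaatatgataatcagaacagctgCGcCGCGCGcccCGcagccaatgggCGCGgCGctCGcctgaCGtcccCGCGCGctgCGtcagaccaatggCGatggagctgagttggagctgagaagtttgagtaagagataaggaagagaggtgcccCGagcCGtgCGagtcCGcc
The promoters of Nkx2-5, Hand2 and Hey2 overlapped a peak in all 4 libraries, with 9, 17 and 29 CG dinucleotides. Those of Irx4 and Isl1 overlapped a peak in none, with 31 and 37. The promoters not printed differed too. That of Shox2, with 11 CG, overlapped a peak in none. Its window ends 50 bases past the start, and a site called in all 4 libraries began 0.065 kb past the start. Of the 2 promoters of Nr2f1, that with 23 CG overlapped a peak in all 4 libraries. The other, with 4 CG, overlapped a peak in TBX5 KO replicate 2 only. The Nr2f2 promoter, with 2 CG, overlapped peaks of the control libraries and none of the TBX5 KO libraries. This rests on the edges of the window, since the merged site from -5.677 to 2.356 kb around that start was called in all 4 libraries. A control replicate 2 peak began 0.034 kb past the start and a TBX5 KO replicate 1 peak 0.124 kb past it. Over the 32851 promoters of the table the median was 7 CG, and 39.4% overlapped a peak in all 4 libraries. Among the 8701 promoters with at least 20 CG, 86.3% overlapped a peak in all 4 libraries and 8.65% in none. Of the 9 genes, 8 matched the promoter table, and Hey1 has no entry. Each promoter was searched on both strands for the T-box core GGTGTG, which 19.05% of all promoters hold. Of the member promoters that of Hey2 held 1 match. The GATA motif AGATAA, held by 11.2% of all promoters, was found once each at Hand2 and Isl1. The NK2 motif AAGTG, held by 46.4%, was found once at Hand2. The E-box CACGTG, held by 7.15%, was found at none of them. The wider E-box CANNTG, which includes CACGTG and is held by 72.3%, was found at all except Shox2 and 1 of the 2 promoters of Nr2f1.

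The peak lists held 61173 and 69557 peaks in the TBX5 KO libraries, against 99924 and 91520 in the control libraries. A site is named control-only where it was called in each control library and in no TBX5 KO library, which holds for 24.9% of all sites called in both control libraries. Read totals are not part of these lists. The fold and the −log10 p of a peak together fix the pileup, the number of fragments stacked at the peak's top, and its local background. The lowest share of recovered pileups within 0.02 of a whole number was 99.9986%, in TBX5 KO replicate 2. The genome background pileup was 10.7 and 13.4 in TBX5 KO and 10.1 and 10.3 in control libraries. The height of a peak below is its pileup over this genome background, not over its local background. At the 38043 sites called in all 4 libraries, the median ratio of TBX5 KO to control height was 0.645, and 88.2% of these sites were lower in both TBX5 KO than in both control libraries, while 0.67% were higher in both. All tests compare 2 libraries with 2, for which a two-sided exact permutation test cannot give less than p = 0.333.

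As 1 set, the 9 genes had about the share of control-only sites seen over all sites. Their sites were called 30 and 41 times in the TBX5 KO libraries, against 47 and 43 times in the control libraries. The means were 35.5 ± 7.78 in TBX5 KO and 45 ± 2.83 in control libraries (SD, n = 2 each), and the groups did not overlap (exact permutation test, two-sided, p = 0.333). The ratio of the means, 0.789, stood beside 0.683 for the whole lists, where peaks and not sites are counted. Of 35 sites in both control libraries, 7 were control-only, which is 20% (95% Wilson interval 10.04% to 35.9%, counting error only). When each site is given the control-only share of all sites of its control rank decile, 6.99 are expected. With each list reduced to the length of the shortest, the mean number of calls was 34 in TBX5 KO and 31.5 in control libraries, so the direction of the total turned, and 3 of 28 sites (10.7%) were control-only beside 14.8% of all sites. Without control replicate 2, 20 of the 52 sites of the remaining control library (38.5%) had no peak in either TBX5 KO library. That setting asks for a call in 1 control library only. Its share over all sites is not given here, so the 24.9% above is not its match. No site was called in both TBX5 KO libraries and neither control library, against 1.91% of all sites in both TBX5 KO libraries. Within the set the genes differed. Nkx2-5 alone held 5 of the 7 control-only sites, and the other genes held 2 of 25 (8%, Wilson 2.22% to 24.97%), with 4.08 expected from rank.

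**Figure D1:**
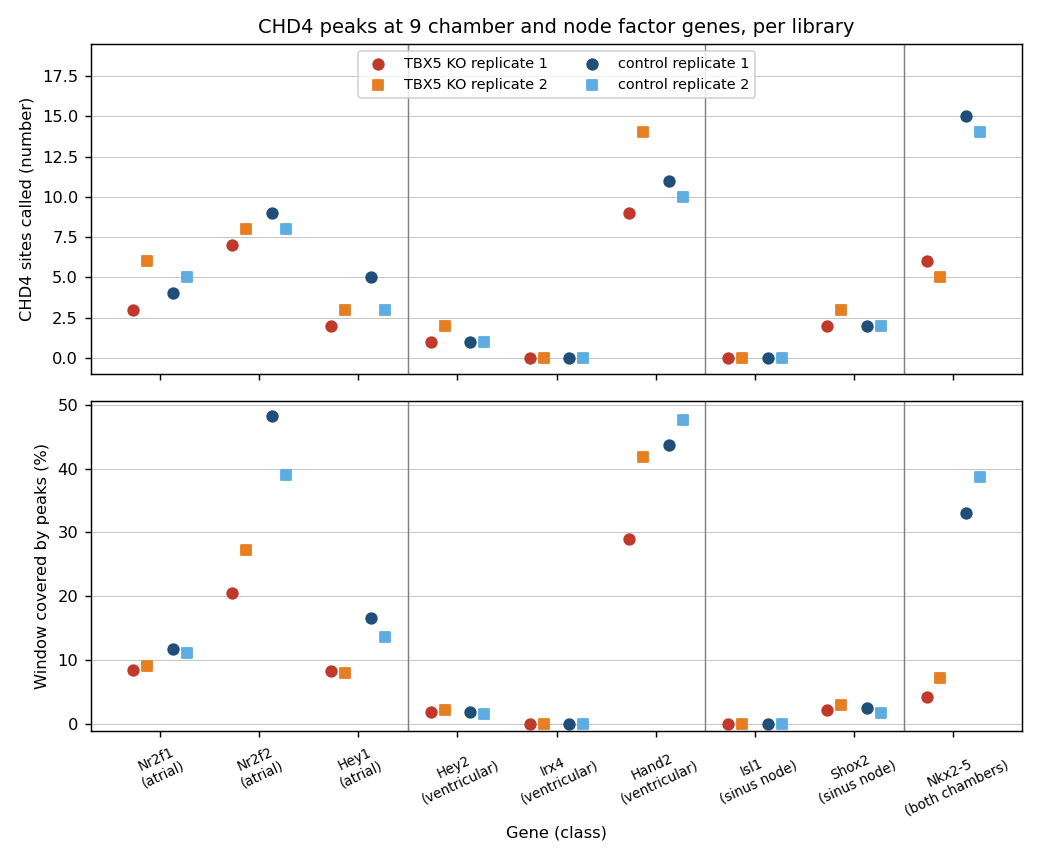
Number of CHD4 sites called (upper panel) and percent of the gene window covered by peaks (lower panel) at each of the 9 genes, with 1 point per library and TBX5 KO libraries left of control libraries. Nkx2-5 is the only gene at which both TBX5 KO libraries had fewer sites than both control libraries, and Irx4 and Isl1 had none.

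At Nkx2-5 (gene ID 18091, chr17:26838664-26844988), a homeobox factor needed in both chambers, most of the CHD4 coverage seen in control atria was not called in TBX5 KO atria. Sites were called 6 and 5 times in TBX5 KO libraries, against 15 and 14 times in control libraries. The groups did not overlap. Of the 16748 protein-coding genes with a site, 48.3% also had fewer sites in both TBX5 KO libraries, and 0.818% had more in both. In lists of equal length the calls at Nkx2-5 were 6 and 5 in TBX5 KO and 7 and 10 in control libraries, where 17.4% of genes with a site had fewer in both TBX5 KO libraries. Peaks covered 1988 and 3356 bp of the window in TBX5 KO libraries, against 15321 and 17910 bp in control libraries. This was 4.29% and 7.24% of the window in TBX5 KO and 33.1% and 38.7% in control libraries, a ratio of summed lengths of 0.161. Among the 2171 protein-coding genes with at least 10 sites in both control libraries, the median ratio was 0.550, and 1.06% had a ratio as low as that of Nkx2-5. By calls Nkx2-5 was less extreme, with 5 of 10 sites control-only (50%, Wilson 23.7% to 76.3%) and 2.92 expected from rank. A control-only share at least as high was found at 9.17% of the same 2171 genes, whose median was 23.1%.

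The 4 Nkx2-5 sites called in all 4 libraries were the tallest of the locus in control atria, and each was lower in both TBX5 KO libraries. The tallest lay from -21.03 to -19.01 kb relative to the start (chr17:26860577-26862596). Its pileup was 30 and 56 fragments in TBX5 KO libraries, against 114 and 124 in control libraries. The 95% Poisson intervals were 20.2 to 42.8 and 42.3 to 72.7 in TBX5 KO libraries, against 94 to 137 and 103 to 148 in control libraries, for counting error only. Over background the heights were 2.81 and 4.18 in TBX5 KO and 11.3 and 12.1 in control libraries, so the control peaks were the higher in every pairing. Its neighbour, from -24.5 to -21.5 kb (chr17:26863065-26866114), had heights of 2.34 and 2.91 in TBX5 KO and 9.20 and 8.96 in control libraries.

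A site from -9.84 to -7.72 kb (chr17:26849280-26851409) had heights of 2.90 and 2.61 in TBX5 KO libraries, against 7.32 and 5.94 in control libraries. The site over the transcription start, from -1.12 to 0.754 kb (chr17:26840811-26842689), had heights of 3.27 and 2.31 in TBX5 KO and 6.92 and 6.52 in control libraries. All 4 sites were thus lower in both TBX5 KO than in both control libraries, as were 88.2% of all shared sites. The height ratios were 0.299, 0.289, 0.416 and 0.416 in the order given. Of the shared sites in the same decile of control rank, 1.26%, 0.292%, 2.64% and 2.62% had a ratio as low, where the medians of those deciles were 0.540, 0.580, 0.610 and 0.610. The 4 sites had pileups of 25 to 35 fragments in TBX5 KO replicate 1 and 31 to 56 in replicate 2, where the lowest peak at any of the 9 genes had 24 and 27 fragments.

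The TBX5 KO peaks at these sites were also narrow. The tallest site was covered by 460 and 1288 bp of peak in TBX5 KO libraries, against 1976 and 1981 bp in control libraries. The site over the start was covered by 303 and 386 bp in TBX5 KO and 1590 and 1648 bp in control libraries. Within its own list, the peak over the start stood at the 48.3 and 17.4 percentile of −log10 p in TBX5 KO libraries and at 85.0 and 84.9 in control libraries. Percentiles of lists of different length describe each list and show no change by themselves. The 5 control-only sites were weaker, with control heights of 2.27 to 4.28, and 4 of them lay outside the gene body. Inside it lay the site from 1.55 to 2.09 kb. The others were the sites from 7.70 to 9.65 kb and 4.47 to 5.80 kb, past the gene, and those from -7.21 to -5.92 kb and -13.7 to -12.7 kb upstream of it.

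**Figure D2:**
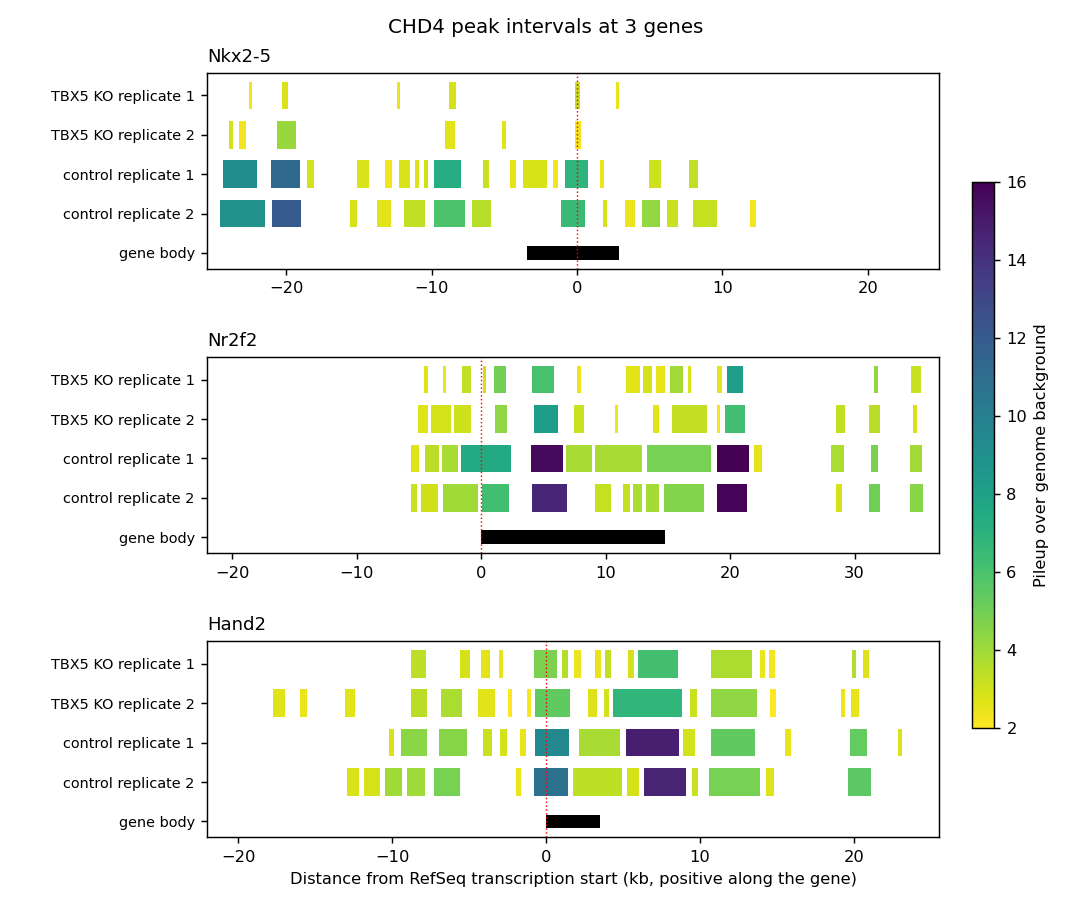
Peak intervals of each library at Nkx2-5, Nr2f2 and Hand2, by distance from a RefSeq transcription start in kb along the gene, coloured by pileup over genome background, with the gene body in black. TBX5 KO libraries are above control libraries. At Nkx2-5 the TBX5 KO peaks are few and narrow, while at Nr2f2 and Hand2 intervals of both groups lie at most of the same positions.

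At the atrial factor genes most sites called in control libraries were also called in TBX5 KO libraries, at heights whose median ratio of 0.668 was near the 0.645 of all shared sites. Their 22 sites were called 12 and 17 times in TBX5 KO libraries, against 18 and 16 times in control libraries, so the groups overlapped (exact permutation test, two-sided, p = 0.667). Of 15 sites in both control libraries, 1 was control-only, with 2.37 expected from rank. A call in every library was found at 12 of them (80%, against 55.8% of all sites in both control libraries, whatever their rank). Covered length was 19063 and 23016 bp in TBX5 KO and 39504 and 32835 bp in control libraries. The ratio of the means was 0.582, near the 0.572 of all peaks, which covered 47.6 and 57.5 Mb in TBX5 KO and 97.0 and 86.7 Mb in control libraries.

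Nr2f2 (gene ID 11819, chr7:70351946-70366746), which encodes the nuclear receptor COUP-TFII that maintains atrial identity in the mouse, had CHD4 peaks along its gene body and on both sides of it. Its sites were called 7 and 8 times in TBX5 KO and 9 and 8 times in control libraries, and 0 of 8 sites in both control libraries were control-only, with 1.26 expected from rank. Peaks covered 20.5% and 27.2% of the window in TBX5 KO libraries, against 48.2% and 39.0% in control libraries. The ratio of covered lengths, 0.547, was near the 0.572 of all peaks, and the number of sites overlapped between the groups. The site inside the gene from 4.004 to 8.86 kb (chr7:70357882-70362742) had heights of 6.08 and 8.28 in TBX5 KO and 15.6 and 14.5 in control libraries. The site past the gene from 18.9 to 21.54 kb (chr7:70345206-70347830) had heights of 8.23 and 6.26 in TBX5 KO and 16.2 and 15.9 in control libraries. These were the tallest sites of Nr2f2, and 20.2% and 13.2% of the shared sites of their decile had ratios as low as their 0.477 and 0.452. The other 5 shared sites had ratios of 0.654 to 0.789.

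Nr2f1 (gene ID 13865, chr13:78188971-78198873) encodes the related receptor COUP-TFI. Its sites were called 3 and 6 times in TBX5 KO libraries and 4 and 5 times in control libraries, so the groups overlapped. Of 4 sites in both control libraries 0 were control-only, with 0.381 expected from rank. The site from -3.59 to -1.53 kb (chr13:78200406-78202465) had heights of 6.27 and 5.82 in TBX5 KO and 8.998 and 8.47 in control libraries. Its ratio of 0.692 was above the decile median of 0.580, and 88.6% of the shared sites of that decile had a ratio as low or lower. The site over the start (chr13:78197481-78199747) had heights of 3.46 and 3.36 in TBX5 KO and 7.02 and 5.45 in control libraries, a ratio of 0.547.

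Hey1 (gene ID 15213, chr3:8663359-8667038), a Notch-responsive repressor of the atria, had 1 dominant site over the gene. At chr3:8663954-8669161 the heights were 7.77 and 7.90 in TBX5 KO libraries, against 17.6 and 15.8 in control libraries, the tallest peaks of the 9 genes in control replicate 1. Peaks at this site covered 3081 and 2987 bp in TBX5 KO and 4818 and 5007 bp in control libraries. The ratio of 0.470 was as low at 18.01% of the shared sites of its decile. A second shared site (chr3:8684841-8685718) had heights of 2.62 and 2.61 in TBX5 KO and 5.73 and 4.96 in control libraries, and its ratio of 0.489 was as low at 3.60% of its decile. Of 3 sites in both control libraries, 1 was control-only, with 0.732 expected from rank. This control-only site and the second shared site lie nearer to an end of another gene. Without sites nearer to another gene, the mean number of calls at Hey1 was 1.5 in TBX5 KO and 2 in control libraries.

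Among the ventricular factor genes Hand2 held nearly all sites. Hand2 (gene ID 15111, chr8:57320983-57324517) encodes a basic helix-loop-helix factor needed for the right ventricle, and its region was among the most covered of the 9, at 29.0% and 41.7% of the window in TBX5 KO and 43.6% and 47.7% in control libraries. Sites were called 9 and 14 times in TBX5 KO libraries, against 11 and 10 times in control libraries, and the groups overlapped. Of 7 sites in both control libraries 1 was control-only, with 1.08 expected from rank, and 6 had a call in every library. The tallest site began 1.74 kb from the start and reached 9.84 kb (chr8:57322726-57330822). Its heights were 6.18 and 6.86 in TBX5 KO and 14.8 and 14.6 in control libraries. Its deposited folds, over local background, were 5.73 and 6.45 in TBX5 KO and 13.6 and 6.14 in control libraries, so they overlapped. The site over the start (chr8:57320192-57322529) had heights of 4.77 and 5.44 in TBX5 KO and 9.39 and 10.7 in control libraries. Of the shared sites of their decile, 11.1% and 33.4% had ratios as low as their 0.443 and 0.508. The weaker shared sites had ratios of 0.568 to 0.805.

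Hey2 (gene ID 15214, chr10:30832359-30842783), a repressor of atrial genes in the ventricle, had 1 site in all 4 libraries, over its start (chr10:30842376-30843446). Its heights were 7.77 and 5.67 in TBX5 KO and 11.3 and 10.2 in control libraries, a ratio of 0.625. By deposited fold, over local background, the groups overlapped, at 5.24 and 5.34 in TBX5 KO and 5.79 and 4.69 in control libraries. The lower height was thus not seen in both TBX5 KO libraries by fold. This site was covered by 939 and 887 bp in TBX5 KO libraries and 996 and 828 bp in control libraries, so its width overlapped between the groups. Irx4 (gene ID 50916, chr13:73259589-73269622), a homeobox factor confined to the ventricle in the mouse, had no peak within 20 kb in any library. On the side of lower coordinates the nearest listed peak was 98.9 and 89.1 kb away in TBX5 KO libraries and 88.8 kb away in each control library. On the other side it was 58.5 kb away in both TBX5 KO libraries, and 58.3 and 58.5 kb away in control libraries.

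The sinus node factors had few sites or none. Shox2 (gene ID 20429, chr3:66971723-66981771), a homeobox factor that shapes the sinus node, had 2 sites in all 4 libraries. The site beside its start (chr3:66980940-66981706) had heights of 2.81 and 2.68 in TBX5 KO and 2.97 and 3.02 in control libraries. By height the groups did not overlap, but the ratio of 0.918 was close to the median of 0.901 of its low decile of control rank. By deposited fold, over local background, they did, at 2.65 and 2.42 in TBX5 KO and 2.57 and 2.36 in control libraries. The site from -4.36 to -3.61 kb (chr3:66985382-66986134) had heights of 3.37 and 2.83 in TBX5 KO and 5.93 and 5.06 in control libraries. Isl1 (gene ID 16392, chr13:116298270-116309688), a LIM homeobox factor of heart progenitors that stays on in sinus node cells, had no peak within 20 kb in any library. No peak was listed over 1780 and 1756 kb around it in TBX5 KO libraries and 1674 and 1641 kb in control libraries. Of 121246 gaps between neighbouring sites in the genome, 291 were at least 1000 kb long, and the median gap was 2.64 kb. No site within 20 kb was found at 23.5% of all protein-coding genes. Absence of a call does not show absence of CHD4.

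A difference between the classes was not shown. The share of a class's sites called was 54.5% and 77.3% in TBX5 KO and 81.8% and 72.7% in control libraries for atrial factors. It was 47.6% and 76.2% in TBX5 KO and 57.1% and 52.4% in control libraries for ventricular factors. For sinus node factors, which here means 3 sites of Shox2, it was 66.7% and 100% in TBX5 KO and 66.7% in each control library. The atrial share exceeded the ventricular share by 4.004 percentage points in TBX5 KO and by 22.5 in control libraries, a difference of -18.5. The difference of the differences was -28.0 for atrial minus sinus node and -9.52 for ventricular minus sinus node factors. Each of these 3 comparisons had p = 0.333 (two-sided exact permutation test, also 0.333 after Benjamini-Hochberg adjustment over the 3). Median height ratios at shared sites were 0.668 for atrial, 0.625 for ventricular and 0.741 for sinus node factors, beside 0.357 for Nkx2-5. All 3 differences changed sign under at least 1 other setting.

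By height, all 25 member sites called in all 4 libraries were lower in both TBX5 KO than in both control libraries. The same held for 88.2% of all such sites. Only at Nkx2-5 and Hey1 did every shared site keep this direction under the 3 scalings tried. Without scaling by background, 20 of the 25 were lower in both TBX5 KO libraries, with 62.5% of all shared sites, and 3 of 6 Hand2 sites overlapped between the groups. With each library set to the median of its shared sites, the ratios of Nr2f2 were 0.713 to 1.24 and those of Hand2 0.699 to 1.27, on either side of 1. Under that scaling 2 Nr2f2 and 2 Hand2 sites were higher in both TBX5 KO libraries and as many were lower. The 4 Nkx2-5 sites were lower in both TBX5 KO libraries under all 3 scalings, with ratios of 0.457 to 0.658 under the last, where 27.5% of all shared sites were lower. Both Hey1 sites were also lower under all 3, with ratios of 0.743 and 0.773 under the last. The second of these Hey1 sites lies nearer to an end of another gene. The median height over all 25 sites was 3.46 and 3.43 in TBX5 KO and 6.92 and 5.55 in control libraries (exact permutation test, two-sided, p = 0.333). By the deposited fold of a site's strongest peak, over local background, the groups overlapped at the tallest Hand2 site and the Hey2 start. They also overlapped at the Shox2 site beside the start and the Nr2f2 site from 31.2 to 32.1 kb. At the other shared sites, all of Nkx2-5 and Hey1 among them, fold was lower in both TBX5 KO libraries. The share of all shared sites that overlap by fold was not computed.

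**Figure D3:**
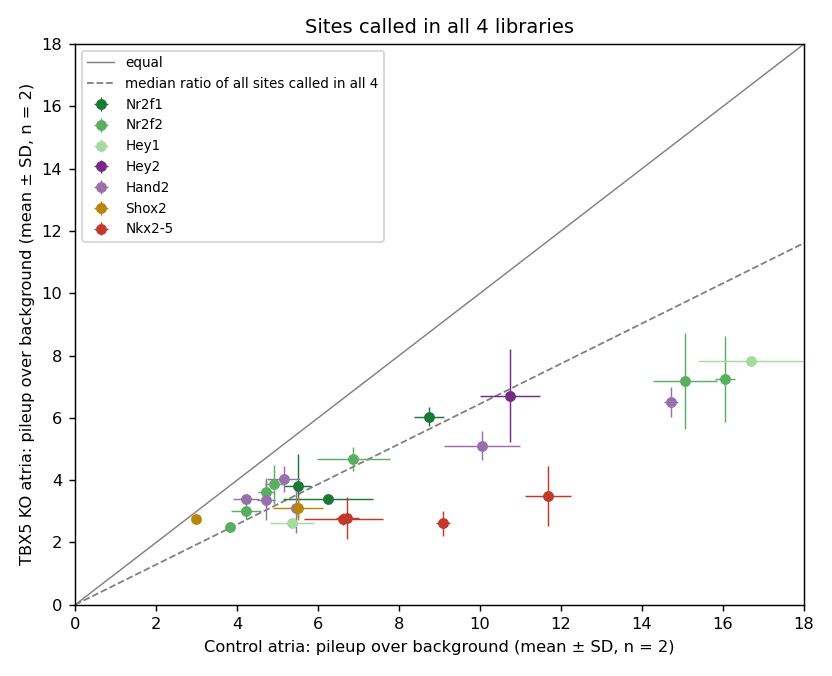
Pileup over genome background at the 25 member sites called in all 4 libraries, TBX5 KO mean against control mean, with SD over 2 libraries as bars. The dashed line is the median ratio of all shared sites, 0.645, and the 4 Nkx2-5 sites, with ratios of 0.289 to 0.416, have the lowest ratios of the 25.

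**Figure D4:**
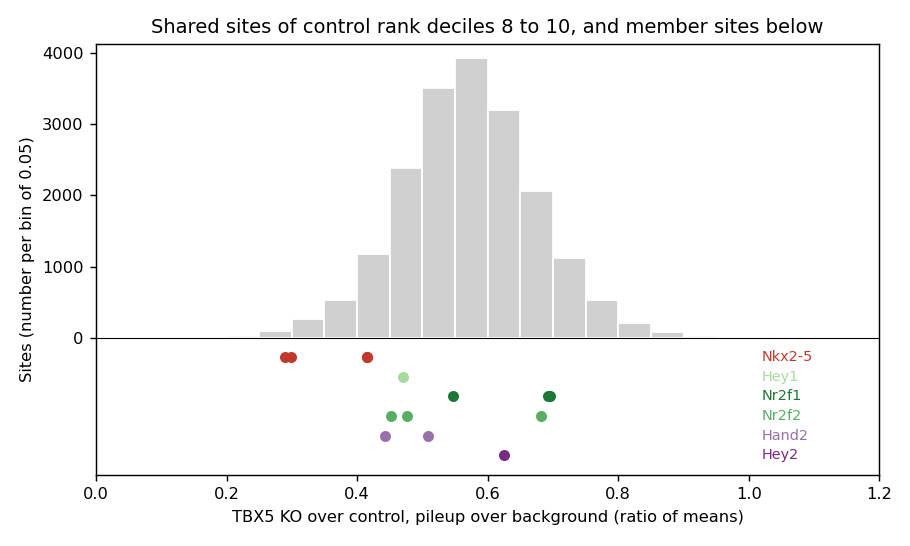
Ratio of TBX5 KO to control height for all shared sites of control rank deciles 8 to 10 (bars, number of sites per bin), with the member sites of these deciles as points below. The Nkx2-5 points lie at 0.289 to 0.416, in the lower tail, and those of the other 5 genes at 0.443 to 0.695.

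By their median, though not at each site, shared member sites were covered by less peak in both TBX5 KO libraries, as were shared sites in general. The median covered length of the 25 shared member sites was 978 and 1026 bp in TBX5 KO and 1998 and 2022 bp in control libraries (exact permutation test, two-sided, p = 0.333). Over all shared sites the median was 786 and 908 bp in TBX5 KO and 1257 and 1142 bp in control libraries. At the atrial genes the medians were 1544 and 1277 bp in TBX5 KO and 2445 and 2220 bp in control libraries. At the 2 Shox2 sites the medians overlapped, with 554.5 and 617 bp in TBX5 KO and 622.5 and 443 bp in control libraries. The Shox2 site beside the start was wider in both TBX5 KO libraries, at 628 and 681 bp, against 508 and 250 bp in control libraries. Widths also overlapped at the Hey2, Nr2f1 and Hand2 starts, among other sites. The Nkx2-5 sites had 379 and 721 bp in TBX5 KO and 1903 and 2056 bp in control libraries. Peaks on member sites covered 35737 and 47178 bp in TBX5 KO and 76058 and 73208 bp in control libraries in all (exact permutation test, two-sided, p = 0.333). This ratio of 0.555 stood beside the 0.572 of all peaks. The local background at these peaks was at most 1.41 and 1.72 times that of the genome in TBX5 KO libraries and at most 1.86 and 2.29 times in control libraries.

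TBX5 KO replicate 2 had more sites of its own at these genes than the genome-wide share. Of the 67 sites, 11 (16.4%) were called in TBX5 KO replicate 2 alone, against 5.01% of all sites, while 1 (1.49%) was called in TBX5 KO replicate 1 alone, against 3.24% of all sites. Of the sites called in replicate 2 alone, 5 lay at Hand2, with heights of 2.09 to 2.68, and the other 9 Hand2 calls of that library were shared with at least 1 other library. The genome background of this library was the highest of the 4, and its part in these calls was not tested.

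A list of 20 related chamber and node patterning genes held genes with many and with few control-only sites. Their 216 sites were called 97 and 104 times in TBX5 KO libraries, against 165 and 157 times in control libraries. Of 123 sites in both control libraries 29 were control-only (23.6%, Wilson 16.9% to 31.8%), beside 24.9% of all sites, with 34.2 expected from rank. At 9 of the 18 genes with a site, both TBX5 KO libraries had fewer sites than both control libraries, and at 0 both had more, beside 48.3% and 0.818% of all protein-coding genes with a site.

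Hcn4, which encodes the main pacemaker channel of the sinus node, had 0 and 1 sites in TBX5 KO and 8 and 9 in control libraries, with 5 of 6 control-only. Hopx, a homeodomain-only cofactor of cardiac growth, had 7 sites in each TBX5 KO library and 19 in each control library, with 6 of 15 control-only. Tbx20, a T-box factor of chamber myocardium, had 8 and 9 sites in TBX5 KO and 22 and 19 in control libraries, with 6 of 16 control-only. Nr2f6, a relative of the COUP-TF receptors, had 6 and 7 sites in TBX5 KO and 13 in each control library, with 3 of 9 control-only. With the groups as titled, these 4 genes had the highest control-only shares among the 9 related genes with at least 5 sites in both control libraries. From rank, 1.79, 3.99, 5.62 and 2.33 control-only sites were expected in the order given, so the counts at Tbx20 and Nr2f6 were near those expected.

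No site of these 4 genes, and 1 of Meis1, was called in both TBX5 KO libraries alone. The lowest shares were at Meis1, a homeobox cofactor, with 0 of 19 control-only and 18 and 24 sites called in TBX5 KO, against 26 and 27 in control libraries. Prdm16, a zinc finger factor of ventricular myocardium, had 1 of 9 control-only, and its sites were called 8 and 10 times in TBX5 KO and 13 and 9 times in control libraries. Meis2 had 2 of 16 control-only, and its sites were called 18 and 15 times in TBX5 KO and 20 and 24 times in control libraries. Tbx2, a repressor of chamber genes, had 1 of 5 control-only, with 7 and 6 sites called in TBX5 KO and 7 and 6 in control libraries. From rank, 4.40, 1.80, 5.77 and 1.12 control-only sites were expected at Meis1, Prdm16, Meis2 and Tbx2. Like Irx4 and Isl1, the related genes Irx1 and Irx2 on the same chromosome had no site.

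By the shares of their sites called in the 4 libraries, Nkx2-5 was most like Hopx among the 16 members and related genes with at least 5 sites, at a Euclidean distance of 20.7 percentage points. The nearest gene was Hand2 for Nr2f1 (22.8 points), Bmp4 for Nr2f2 (21.8 points), Prdm16 for Hey1 (28.1 points) and Meis1 for Hand2 (21.6 points). With 4 libraries and few sites per gene these distances only describe the lists.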

How the data were processed

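CHD4 ChIP-seq of mouse atria gave 4 peak lists, 1 per library, made by the authors from ChIP and input reads, per the series design text. Groups and replicate numbers were taken from the titles. The submitters' processing notes name MACS2, DiffBind and build mm10; the aligner, the read filters and the peak thresholds are not stated there. The deposited fold is the authors' ratio of pileup to local background, and the deposited −log10 p and −log10 q values and the score are those of the peak caller. The 4 input libraries were not analysed on their own.

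Peaks overlapping by 1 bp were merged into sites with Python 3.11.15, pandas 2.3.3 and scipy 1.17.1. Pileup and local background were solved from the fold, taken in the usual form of MACS2 as pileup plus 1 over background plus 1, and the Poisson −log10 p. This was tested on simulated data. Genome background is the level shared by the lowest local backgrounds of a list. Control rank is the mean percentile of −log10 p in the control lists, in 10 deciles. Gene ends came from a RefSeq table of GRCm38.p6 that gives no exons. Groups were compared with two-sided exact permutation tests over libraries, and shares carry 95% Wilson intervals. Other thresholds, list lengths, overlap rules, windows, scalings and left-out libraries were tried.

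The members, classes and lists were chosen with earlier results of these data known. Named genes were all members, the 4 highest and 4 lowest related genes by control-only share among those with at least 5 sites in both control libraries, and each member's nearest gene.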

Additional observations from a re-analysis of the deposited data

How the results depend on the processing

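The exact permutation tests cannot give less than p = 0.333, so these values describe direction and size only. The mean number of member sites called differed by -9.5 (35.5 in TBX5 KO, 45 in control libraries). The difference was 2.5 in lists of equal length and 0 with the gene body alone, and it ran between -16 and -4 as each library was left out. Covered length differed by -33175.5 bp, and by -38896 to -27455 bp with 1 library left out. The control-only share of 20% was 8.33% with the gene body alone. It was 22.9% to 38.5% with 1 library left out, where fewer lists have to lack the site or hold it. Shares of all sites with 1 library left out are not given here. With the replicate block, the control-only share was 40.4% in pair 1 and 32.6% in pair 2, beside 52.1% and 42.0% of all sites, and the mean differences were as without it, with p = 0.5 the smallest an exact sign test over 2 pairs allows. Over 38043 shared sites the deviations of same-numbered libraries were not correlated (r = -0.0154). A shift common to all sites of a library does not enter that correlation, so a shared batch was not tested.

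The class difference of atrial minus ventricular factors became 0.641 percentage points with summits within 250 bp and 12.5 with the gene body alone. Atrial minus sinus node became 21.9 at −log10 q of at least 5. Ventricular minus sinus node became 5.88 at −log10 q of at least 3, 30 at 5 and 8.33 without Hand2. If the genotype and treatment fields were right and the titles wrong, every direction would turn. The differences would then be 9.5 calls, 33175.5 bp of covered length, 1008 bp of width and a height of 2.79. The class differences would be 18.5, 28.0 and 9.52 points, that at Nkx2-5 9 calls, and 0 of 27 member sites would be control-only. An alternative chosen after seeing the data, pileup over the median of all shared sites, gave 0.902 in TBX5 KO and 1.03 in control libraries. Covered length, and the width and height at shared sites, kept their direction in every setting except the exchange of group names. That exchange turns each value by design, and the overlap rules left the covered length difference at -33175.5 bp. With summits within 250 bp the difference in calls shrank to -2.5 and that of atrial minus sinus node to -4.17 points. At Hand2 a difference of 1 call became -2 at −log10 q of at least 5. Calls rest on lists of unequal length, and weak sites near the threshold limit every count.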
